A study of Homo sapiens with 6 samples.

Results

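Human chromosome 22 is a small acrocentric chromosome, and its contact maps and topologically associated domains (TADs) were described in LNCaP cells, an established prostate cancer line, with and without CTCF RNAi. The members were all 40 kb bins of chromosome 22 with contacts in both maps, which were 855 of 64423 covered bins of the genome (hg19), and the TADs of chromosome 22 in both deposited lists, which were 36 of 2864 after control siRNA and 39 of 2389 after CTCF siRNA. Chromosome 22 was chosen by these lists, because the one after CTCF siRNA was the longer here, so its TAD number, TAD size and boundary classes are descriptions without a test. Control cells received a pool of non-targeting siRNAs and knockdown cells a pool of 4 siRNAs against CTCF, both at 20 nM in 2 rounds of 72 h, and were collected at 144 h. Hi-C was made with the restriction enzyme BglII from 2 control libraries and 4 CTCF siRNA libraries, and the authors pooled the libraries of a condition into 1 map. The labels of the 4 are Rep1, Rep2, Rep1.1 and Rep2.1, which do not say whether the last pair are separate cultures or further sequencing of the first. A legend on CTCF sites at boundaries names 2 independent experiments, but not whether these are Hi-C or ChIP cultures. The study's reporting form gives duplicates or triplicates for all experiments, without a number for Hi-C. Because the libraries were pooled, no value here has a replicate. Counting SDs and Wilson or Poisson intervals cover counting of read pairs only, while intervals of medians cover the spread over TADs or boundaries, and the effect of pooling 2 against 4 libraries cannot be told apart from that of the siRNA.

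Hi-C joins pieces of DNA that lie close together in the nucleus and counts the joined pairs by sequencing. TADs are stretches of a chromosome whose loci contact each other more than loci outside, and their boundaries often carry sites for CTCF, a zinc finger protein that halts the extrusion of chromatin loops by cohesin. Genes transcribed in every cell type are also common at boundaries.

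The siRNAs of the CTCF pool are shown in lower case because they define the knockdown.

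CTCF siRNA 1: gaugaagacugaaguaaug
CTCF siRNA 2: ggagaaagaagaagagua
CTCF siRNA 3: gaagaugccugccacuuac
CTCF siRNA 4: gaacagcccauaaacauag

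A single form of the CTCF core motif, CCANNAGNNGGCGC with any base at N, was searched on both strands. A match was held by 66 of 873 chromosome 22 bins with sequence (7.56%), against 2712 of 71478 bins of the genome (3.79%). All matches in bins of chromosome 22 boundaries are printed below with up to 20 bases on either side, from GRCh37 (the sequence of hg19), because they are what the 40 kb bins of 7 boundaries hold of this motif. A match lay anywhere in its bin, up to 18.5 kb from the centre. Capitals mark the motif, and the sequence is that of the strand given.

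Lost boundary at CECR2, chr22:18020332-18020385, minus strand: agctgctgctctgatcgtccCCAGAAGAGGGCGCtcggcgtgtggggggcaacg
Lost boundary at MYO18B, chr22:26169069-26169122, minus strand: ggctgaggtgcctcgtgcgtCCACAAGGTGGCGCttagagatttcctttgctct
Lost boundary at SOX10 and POLR2F, chr22:38379099-38379152, plus strand: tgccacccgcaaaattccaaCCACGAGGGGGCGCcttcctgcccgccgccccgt
Gained boundary at KCNJ4, chr22:38822566-38822595, plus strand: tagagccaCCAGAAGTAGGCGCtggcggaa
Gained boundary near PPARA, chr22:46518465-46518518, plus strand: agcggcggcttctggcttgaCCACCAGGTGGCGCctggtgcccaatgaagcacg
Gained boundary at CDPF1, chr22:46645995-46646048, minus strand: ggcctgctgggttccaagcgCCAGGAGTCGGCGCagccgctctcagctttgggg
Maintained boundary near LRRC74B, chr22:21457232-21457285, plus strand: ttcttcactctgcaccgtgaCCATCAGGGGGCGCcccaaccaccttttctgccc

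The CECR2 match lay in coding sequence and the MYO18B and CDPF1 matches in introns. The SOX10 match lay in a non-coding exon, the KCNJ4 match in an untranslated region, and the matches near PPARA and LRRC74B outside protein-coding genes. A match to these letters does not show that CTCF bound there. Lack of a match does not show that a bin has no CTCF site, because other forms of the motif were not searched.

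Chromosome 22 was small and gene-rich by measurement. Among the 23 chromosomes other than Y it ranked 22nd in length, 2nd in GC content (48.0%, after chromosome 19 with 48.4%) and 5th in protein-coding genes per Mb (450 genes, 8.77 per Mb, against 25.03 on chromosome 19 and a median of 5.74). Lengths were those of whole reference chromosomes, stretches without sequence included, so genes per sequenced Mb may rank differently. Covered bins ran from 16080001 to 51240000, and 822 bins were usable, meaning that they held at least 10% of the chromosome's median cis count in both maps. The control map held 150472 contacts within chromosome 22 and the CTCF siRNA map 971442, or a median of 296 and 1916.5 per usable bin. The ratio of 6.46 was the highest of the 23 chromosomes, whose median was 4.26, with 6.33 on chromosome 19 and 2.88 on chromosome 4. When the usable bins were ordered by GC content into 5 equal groups, the ratio was 5.55 in the group of lowest GC, then 6.79, 6.89, 6.70 and 6.24. Whether depth or base composition had a part in the differences below was not tested, except where thinning of the deeper map to an equal number of cis contacts is given, which does not match contacts between chromosomes.

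The TADs of chromosome 22 were shorter in median and slightly more numerous after CTCF siRNA in the deposited lists. The median size was 760 kb (95% order-statistic interval 560 to 960) in 36 control TADs and 520 kb (440 to 880) in 39 TADs after CTCF siRNA, and these intervals overlapped. Short TADs of at most 400 kb numbered 3 of 36 in the control list and 10 of 39 after CTCF siRNA. At the other end, none of the control TADs and 3 of the CTCF siRNA TADs were longer than 2 Mb, so that the sizes ran from 360 to 2000 kb in control and from 160 to 3640 kb after CTCF siRNA. The length inside TADs was 30.6 Mb in control and 31.96 Mb after CTCF siRNA, a difference of 1.36 Mb that became -2.28 Mb without the TAD of 3640 kb. Over the 23 chromosomes the TAD number was higher after CTCF siRNA on chromosomes 22 and 19 only, with 56 and 68 TADs on chromosome 19. It was 96 and 93 on chromosome 17 and 37 and 33 on chromosome 21. The median size of 520 kb was the lowest of the 23 chromosomes after CTCF siRNA, where their median was 840 kb. Called anew from the recovered counts with a directionality index and a hidden Markov model, chromosome 22 had 28 TADs in control and 29 after CTCF siRNA, and 26 once the deeper map was thinned to the control's number of cis contacts. The median size of these TADs was 820 kb in control, 880 kb after CTCF siRNA and 1040 kb after thinning. The direction of the size difference thus turned when TADs were called anew, and that of the number only when the deeper map was also thinned. The new calls differ in both input values and caller, and their parts were not tested.

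**Figure D1:**
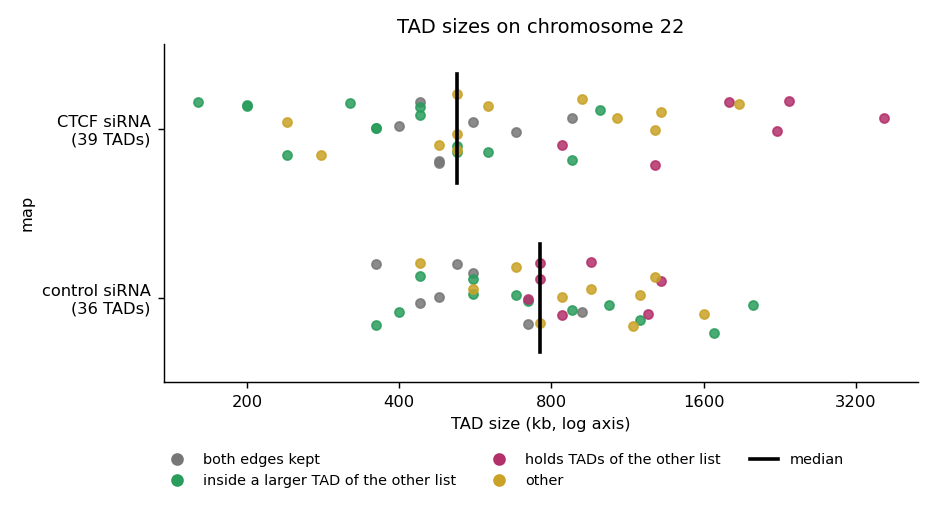
Sizes of the chromosome 22 TADs (kb, log axis) after control siRNA (36 TADs) and CTCF siRNA (39 TADs), each point 1 TAD coloured by how it relates to the other list, with height within a row arbitrary and a bar at the median. The median lay at 760 kb in control and 520 kb after CTCF siRNA, where the list also held 3 TADs above 2 Mb.

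Both edges were kept, within 40 kb, by 7 TADs. A TAD was counted as coming from subdivision when it lay inside a control TAD, allowing 40 kb beyond each edge. That control TAD had to hold at least 2 TADs of the CTCF siRNA list. By this rule 14 of 39 TADs came from subdivision (35.9%), against 13.4% of CTCF siRNA TADs over all chromosomes. This was the highest share of the 23 chromosomes, with 26.5% on chromosome 19, 21.2% on chromosome 21 and 12.9% on chromosome 17. In the other direction 12 of 36 control TADs (33.3%) had merged into a longer TAD by the same rule, against 31.3% over all chromosomes. With an edge tolerance of 0 kb, 10 CTCF siRNA TADs came from subdivision and 10 control TADs had merged. Since chromosome 22 was selected on these lists, nothing further is read from the shares.

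The 14 TADs came from 7 control TADs, each of which held 2, so that no single TAD held the most. The 7 control TADs had a median of 19.05 protein-coding genes per Mb, against 17.9 in the 7 that kept both edges, 15.8 in the 10 of no such class and 5.06 in the 12 that merged. In 22q11.2 the 840 kb TAD at 18860001 to 19700000 was replaced by TADs of 520 and 320 kb that met at HIRA, and the 760 kb TAD at 20700001 to 21460000 by 2 TADs of 360 kb with a gap of 120 kb at PI4KA. The 1240 kb TAD of the apolipoprotein L genes, 35660001 to 36900000, was replaced by TADs of 1000 and 240 kb. The neighbouring control TADs at 41300001 to 42020000 and 42020001 to 42980000 were both divided, the former into 200 and 440 kb at EP300 and the latter into 440 and 520 kb. The TAD at 43540001 to 44300000 was divided into 200 and 600 kb at SCUBE1. The 1320 kb TAD at 45620001 to 46940000 held TADs of 880 and 160 kb, and PPARA lay in the shorter of them.

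Among the merged control TADs the density ran from 0.83 to 36.4 genes per Mb. These 12 formed 6 longer TADs of 2 each, again a tie. The longest after CTCF siRNA, 46660001 to 50300000 (3640 kb), held control TADs of 2000 and 1200 kb that had met at TAFA5. The TAD at 26780001 to 29140000 (2360 kb) held TADs of 1680 and 560 kb, that at 33420001 to 35660000 (2240 kb) held TADs of 680 and 880 kb, and that at 24980001 to 26780000 (1800 kb) held TADs of 1040 and 560 kb that had met at MYO18B. TADs of 720 and 360 kb were joined within 44340001 to 45620000 (1280 kb). The last pair, of 440 and 400 kb, held the APOBEC3 cytidine deaminases and the Polycomb genes CBX6 and CBX7, and was joined into 840 kb at 39060001 to 39900000.

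Contacts inside the control TADs, observed over expected at the same distances, had a median of 1.09 in control and 1.04 after CTCF siRNA over the 36 TADs, and were higher after CTCF siRNA in 10. The 95% counting intervals lay apart in 18 TADs, of which 4 were higher and 14 lower. Inside the 39 TADs of the CTCF siRNA list the medians were 1.04 in control and 1.05 after CTCF siRNA, with higher values in 21, and the intervals lay apart upwards in 8 and downwards in 5. The direction of these medians thus differed between the lists. Each list was called on its own map, whose part in this was not tested. The counts behind both tallies were not balanced for bin bias, and cis contacts rose between 4.28-fold and 7.52-fold in single control TADs. The part of this in the directions was not tested, except for the 1 balanced ratio below. Among the control TADs, the lowest ratio was that of the 560 kb TAD at TTC28 (28420001 to 28980000), where observed over expected was 0.93 (0.88 to 0.99) in control and 0.48 (0.46 to 0.50) after CTCF siRNA, a ratio of 0.512 (0.477 to 0.549). Its GC content was 39.4%, and its bins gained 4.28-fold in cis contacts against 6.46-fold for the chromosome. After both maps were balanced for bin bias, an alternative chosen after seeing the data, the values were 1.11 and 1.02 and the ratio 0.918.

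A boundary was a TAD edge, or facing edges of neighbouring TADs at most 100 kb apart, and boundaries of the lists were shared when they lay within 40 kb. Chromosome 22 had 46 boundaries in control and 44 after CTCF siRNA. Of these, 25 were maintained, 21 control boundaries were lost (45.7%, against 47.4% over all chromosomes) and 19 CTCF siRNA boundaries were gained (43.2%, against 36.9%). The maintained boundaries lay 0 kb (19) or 40 kb (6) from a boundary of the other list, and just outside the threshold 3 gained and 3 lost boundaries lay 80 kb apart. These pairs were CHEK2 with XBP1, a pair of bins at DRG1, and EIF3L with SOX10, so by position alone each could also be read as a boundary moved by 2 bins. The insulation value described below was lower after CTCF siRNA in both bins of the first pair, with changes of -1.02 and -0.56. The median distance to the other list was 240 kb for gained and for lost boundaries, up to 440 kb for gained and 1360 kb for lost, the latter at TAFA5.

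Insulation was measured at the bin of each boundary as the log2 ratio of contacts across the bin to contacts within the 400 kb on either side, each observed over expected for its distance in the same map. Lower values mean fewer contacts across relative to those within the flanks. The boundary classes were made from the same maps. The direction of change in gained and lost boundaries, and the depth of maintained ones in both maps, are therefore a description of how they were chosen. Lost boundaries had a median of -0.89 in control and -0.11 after CTCF siRNA, with a median change of 0.65 (0.38 to 1.03), and 19 of 21 were higher. Maintained boundaries were the deepest in both maps, at -1.42 and -0.91, and 16 of the 21 with a value were higher, with a median change of 0.41 (0.12 to 0.57). Gained boundaries went from -0.29 to -0.65 with a median change of -0.23 (-0.65 to -0.02), and 15 of 19 were lower. Bins inside TADs of both lists and at least 5 bins from a boundary had a median of 0.28 and 0.26, with a change of -0.08 (-0.12 to -0.03, 336 bins).

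The change went beyond its 95% counting interval upwards in 16 lost, 15 maintained and 1 gained boundaries, and downwards in 1 lost, 1 maintained and 10 gained boundaries. Many bins went as far, with 31.1% of bins over all chromosomes upwards and 24.3% downwards, and 241 (30.2%) and 218 (27.4%) of the 797 bins of chromosome 22. A change of at least 0.5 was reached by 14 of 21 lost and 8 of 21 maintained boundaries, against 12.9% of bins over all chromosomes and 94 of 797 bins (11.8%) of chromosome 22. A change of -0.5 or lower was reached by 5 of 19 gained boundaries, against 3.83% of bins over all chromosomes and 39 of 797 (4.89%) here. Of the same classes over all chromosomes, 60% of lost and 36.6% of maintained boundaries rose and 17.4% of gained ones fell this far. Over all chromosomes the median changes were 0.60 for lost, 0.35 for maintained and -0.13 for gained boundaries. On chromosome 19 they were 0.44, 0.17 and -0.13. The intervals of chromosome 22 included both sets of medians in every class.

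**Figure D2:**
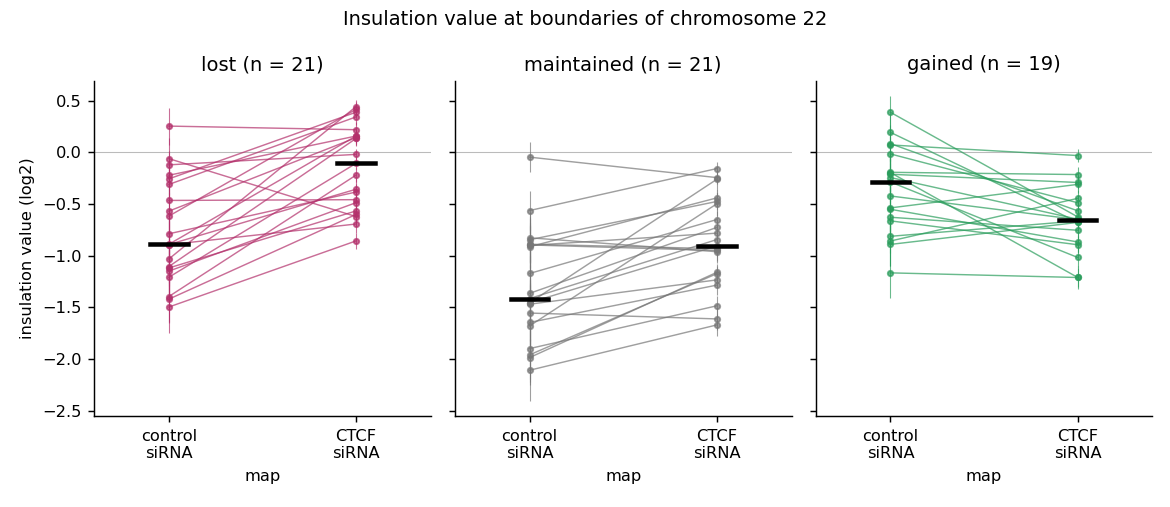
Insulation value (log2) in the control and CTCF siRNA maps at the lost, maintained and gained boundaries of chromosome 22, each line 1 boundary bin with its 95% counting interval and black bars the medians. Most lost (19 of 21) and maintained (16 of 21) boundaries had higher values after CTCF siRNA, and most gained boundaries (15 of 19) lower ones.

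At 5 gained boundaries the insulation value was lower by at least 0.5. At the bin of HIRA, a histone chaperone for variant H3.3, and C22orf39 (19360001 to 19400000), 463 contacts crossed in control and 1627 after CTCF siRNA, where 361 and 2392 were expected. The value went from 0.39 to -0.62, a change of -1.01 ± 0.09 (counting SD), so this bin went from more crossing contacts than expected to fewer. With flanks of 200 kb the change was -0.66. The bin of CHEK2, a DNA damage checkpoint kinase, and HSCB, an iron-sulphur cluster co-chaperone (29120001 to 29160000), had 241 and 731 contacts across against the same expected counts. Its value went from -0.20 to -1.21, by -1.02 ± 0.12, and by -1.59 and -0.48 when flanks of 200 and 800 kb were used.

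The bin of PRR14L and DEPDC5, the latter a subunit of the GATOR1 complex that restrains mTORC1 (32120001 to 32160000), had 387 and 1345 contacts across and went from 0.19 to -0.67 (-0.87 ± 0.10). The last pair of bins lay close together, on either side of the PPARA gene. The bin 26.4 kb from PPARA (46480001 to 46520000) went from -0.29 to -1.02 (-0.73 ± 0.10), with 308 and 1116 contacts across and a GC content of 61.7%. The bin of CDPF1, PKDREJ and TTC38 (46640001 to 46680000) went from 0.08 to -0.57 (-0.65 ± 0.10), with 326 and 1443 contacts across, but by only -0.14 with flanks of 200 kb. Both bins of this pair hold a motif match shown above.

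A further 10 gained boundaries had values lower by less than 0.5. Among them, SCUBE1 (43720001 to 43760000) went from -0.02 to -0.49 (-0.47 ± 0.09), and the bin of TBC1D10A, CCDC157 and the splicing factor gene SF3A1 (30720001 to 30760000) went from -0.24 to -0.65 (-0.40 ± 0.10). EP300, a histone acetyltransferase gene (41520001 to 41560000), went from -0.55 to -0.87 (-0.32 ± 0.12). DRG1 with EIF4ENIF1 (31840001 to 31880000) went from -0.66 to -0.89 (-0.23 ± 0.11) and MORC2, a chromatin compaction ATPase gene (31320001 to 31360000), from -0.42 to -0.65 (-0.23 ± 0.09). All 5 changes exceeded the counting interval with flanks of 400 kb. Their size depended on the setting. The changes at TBC1D10A, DRG1 and MORC2 were -0.74, -0.61 and -0.42 with flanks of 200 kb but -0.09, -0.11 and 0.01 with flanks of 800 kb, and MORC2 changed by -0.08 in the thinned map. SCUBE1 changed by -0.19 with balanced counts, and EP300 by -0.51 with flanks of 200 kb and -0.19 with values as deposited. In contrast, the other 5 changed by less than theirs, among them EIF3L with MICALL1 (38280001 to 38320000) by -0.13 ± 0.10, the potassium channel gene KCNJ4 (38800001 to 38840000) by -0.10 ± 0.09, the bin of ZBED4, ALG12 and CRELD2 (50280001 to 50320000) by -0.04 ± 0.13, and the synapsin gene SYN3 (33400001 to 33440000) by -0.02 ± 0.10. The last but one was already deep in control, at -1.17. None of these 4 kept its direction in all settings. EIF3L changed by -0.58 with flanks of 200 kb and by 0.06 with values as deposited, KCNJ4 by 0.13 with flanks of 200 kb and by -0.39 with balanced counts, the bin of ZBED4 by 0.34 with flanks of 800 kb, and SYN3 by 0.07 and 0.10 with flanks of 200 and 800 kb.

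The remaining 4 gained boundaries had higher insulation values after CTCF siRNA with flanks of 400 kb, although the list placed a new TAD edge there. These were PI4KA, a phosphatidylinositol kinase gene, with SERPIND1 (21120001 to 21160000; -0.86 to -0.45, 0.41 ± 0.13), a bin 21.98 kb from PI4KA (21000001 to 21040000; -0.54 to -0.31, 0.23 ± 0.13), the bin of APOL1 and MYH9 (36640001 to 36680000; -0.89 to -0.68, 0.21 ± 0.11) and a bin 59.8 kb from BCR (23720001 to 23760000; -0.81 to -0.66, 0.15 ± 0.09). The first alone exceeded its counting interval. The second changed by -0.18 with flanks of 200 kb and by 0.02 with balanced counts, and the last by -0.09 with balanced counts but by 0.28 and 0.32 with flanks of 200 and 800 kb, so their direction depended on the setting. APOL1 with MYH9 changed by 0.08 with flanks of 200 kb and 0.06 with balanced counts. Of the 19 gained bins, 16 overlapped a protein-coding gene (84.2%, against 74.7% of all usable bins).

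**Figure D3:**
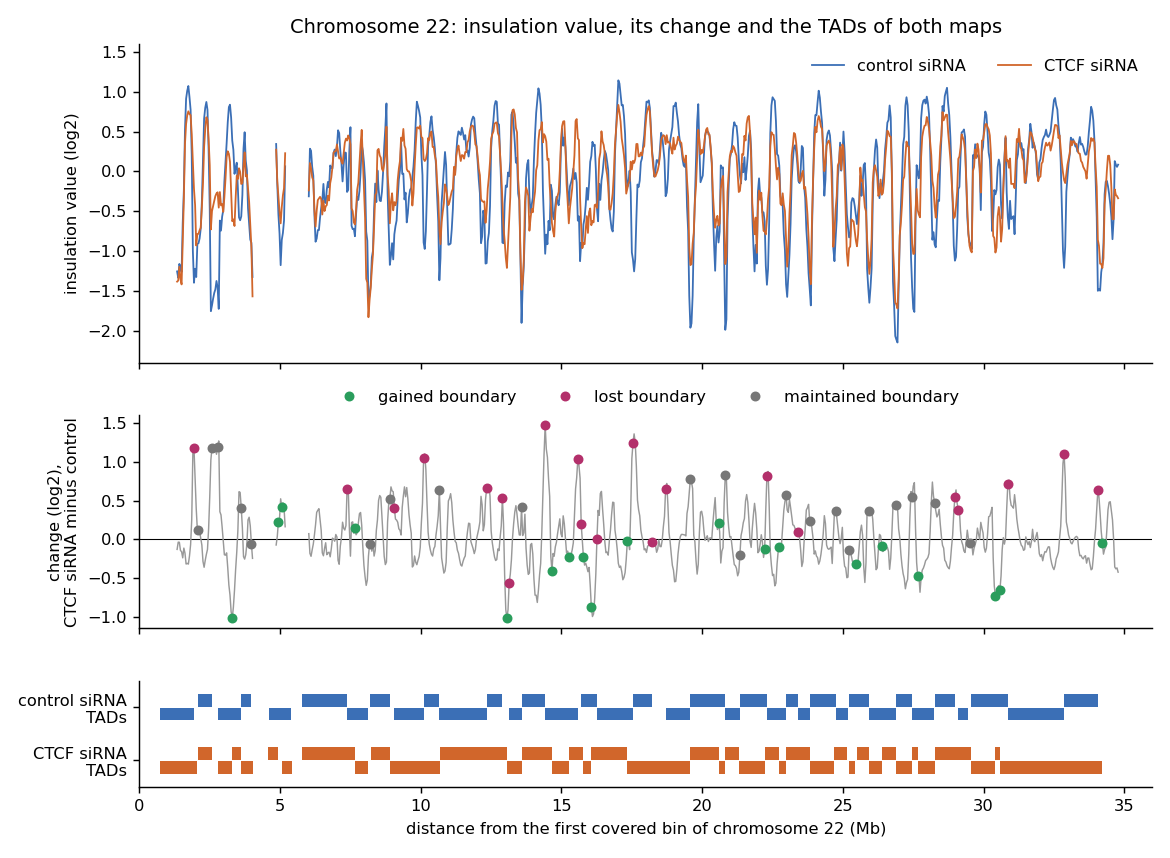
Insulation value (log2) along chromosome 22 in both maps (top), the change of CTCF siRNA minus control with gained, lost and maintained boundaries as points (middle), and the TADs of both lists as bars (bottom), by distance in Mb from the first covered bin. The lowest points of the change are the gained boundaries at HIRA and CHEK2 and the highest is the lost boundary at HORMAD2.

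Among the lost boundaries with the largest rises were HORMAD2 and CECR2. At HORMAD2, a meiotic chromosome axis gene (30480001 to 30520000), 169 contacts crossed in control and 2713 after CTCF siRNA, against 361 and 2392 expected, and the value went from -1.03 to 0.44 (1.48 ± 0.12, or 0.76 with flanks of 800 kb). At CECR2, a chromatin remodelling gene (18000001 to 18040000), 144 and 2078 contacts crossed and the value went from -1.40 to -0.22 (1.18 ± 0.13). These dips were thus gone or nearly gone in the CTCF siRNA map.

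The boundary at SOX10, a neural crest transcription factor gene, and POLR2F (38360001 to 38400000) kept part of its insulation, from -1.42 to -0.60 (0.82 ± 0.12, or 0.27 with flanks of 800 kb). Only 2 of 21 lost boundaries had lower values after CTCF siRNA. At the bin 3.42 kb from XBP1 (29200001 to 29240000), 80 kb from the gained boundary at CHEK2, 270 and 1185 contacts crossed and the value went from -0.06 to -0.62 (-0.56 ± 0.11, or -0.31 and -0.24 with flanks of 200 and 800 kb). The smallest rise was that of YWHAH, a 14-3-3 protein gene (32320001 to 32360000), at 0.01 ± 0.10, with 0.40 and -0.20 at flanks of 200 and 800 kb.

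The 2 maintained boundaries with the largest rises lay in 22q11.2, and the bin of the first was itself not usable. AC008132.13 (18840001 to 18880000) went from -1.46 to -0.26 (1.20 ± 0.24) and USP18, an interferon-induced protease gene (18640001 to 18680000), from -1.68 to -0.50 (1.18 ± 0.24), both from only 41 contacts across in control. The bin of FOXRED2 and EIF3D (36880001 to 36920000) went from -1.99 to -1.16 (0.83 ± 0.14). The largest falls were small and turned to rises with flanks of 200 kb. The bin of TEX33, TST and MPST (37400001 to 37440000) changed by -0.20 ± 0.08, XPNPEP3 (41280001 to 41320000) by -0.13 ± 0.14, and the bin 2.59 kb from MIF (24240001 to 24280000) by -0.06 ± 0.15, the last at -1.56 and -1.61. With flanks of 200 kb these changes were 0.05, 0.34 and 0.14. The deepest boundary in both maps was that of SERHL2 and POLDIP3 (42960001 to 43000000), at -2.11 and -1.67, although the bin itself held no contacts in either map and its value rests on the bins around it. Another 4 maintained boundaries, all between 16800001 and 21880000, had too few usable bin pairs for a value.

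Sequence features that the lists did not use were counted in the bins of each class. The median GC content was 48.2% in gained, 48.9% in lost and 48.6% in maintained bins, against 47.0% inside TADs. A protein-coding gene overlapped 84.2% of gained, 85.7% of lost and 21 of 25 maintained bins, against 60.2% inside TADs and 74.7% of all usable bins. A gene start lay in 10 of 19 gained (52.6%), 7 of 21 lost (33.3%) and 13 of 25 maintained bins (52.0%), against 25.4% inside TADs and 35.9% of all usable bins. The motif matched in 3 of 19 gained, 3 of 21 lost and 1 of 25 maintained bins, against 5.19% inside TADs and 7.79% of all usable bins. These counts are too small to order the classes. The median number of BglII sites was 6 in gained, 8 in lost and 7 in maintained bins, against 9 inside TADs. The median control cis count, which comes from the maps and not the sequence, was 236, 297 and 138, against 305. All gained and lost bins were usable, but the maintained bins included unusable ones with 0 to 21 control contacts. These lower the median of the maintained class, so it is not comparable with the others. The part of these features and counts in the calling of boundaries was not tested.

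Named genes of chromosome 22, listed by position and textbook role, were looked up in both maps. All 57 were annotated, and 50 had an insulation value at their start, of which 4 were higher by at least 0.5 and 7 lower by at least 0.5. Of 396 protein-coding gene starts of the chromosome with a value, 49 were higher and 32 lower by as much, with a median change of 0.03. Several listed genes restate boundaries described above, which were chosen from the same maps. The starts of CHEK2 and APOL1 lay in gained boundary bins and those of SOX10 and APOBEC3H in lost ones. Those of DGCR8, EWSR1 and ATF4 lay in maintained ones. The starts of HIRA, XBP1, PPARA and EP300 lay in bins next to a gained boundary bin. Those of PATZ1 and CBX7 lay next to a lost one. The start of CLTCL1 lay within the flank of the gained boundary at HIRA, and other listed genes lay within flanks of boundaries too. The values of these genes are therefore not observations separate from those boundaries. Genes were placed in TADs by their start. After CTCF siRNA, 22 of the 57 genes lay in a TAD shorter by over 80 kb and 21 in a longer one, against 156 and 107 of the 450 protein-coding genes of the chromosome.

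Tumour suppressors and fusion partners moved in both directions, with 3 of 11 lower and 1 higher. At SMARCB1, a SWI/SNF remodelling subunit, the value went from -0.76 to -1.35 (-0.59 ± 0.13), and CHEK2 is given above. CLTCL1, a clathrin heavy chain gene, changed by -0.59 ± 0.08, whereas PATZ1, a zinc finger gene, went from -1.13 to -0.33 (0.79 ± 0.14). Smaller changes were measured at EWSR1 (0.41 ± 0.16), EP300 (-0.31 ± 0.12) and NF2, which encodes merlin (-0.07 ± 0.12). EWSR1 stayed at a deep boundary, at -1.90 and -1.49. The TAD at the start of EP300 was 720 kb in control and 200 kb after CTCF siRNA, and this start came to lie 11.4 kb from a boundary instead of 189 kb. The rest of the gene beyond that boundary lay in the gap before the next TAD. Inside the TAD of 200 kb, with 6 usable bins, observed over expected contacts were 0.43 in control and 0.48 (0.45 to 0.52) after CTCF siRNA. The median of that list was 1.05 after CTCF siRNA.

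Transcription factor genes had 2 of 6 lower and 1 higher. XBP1, which drives the unfolded protein response, went from -0.01 to -0.92 (-0.91 ± 0.11). PPARA, a nuclear receptor of fatty acid oxidation, changed by -0.72 ± 0.11 as its TAD of 1320 kb gave way to one of 160 kb. Inside that TAD of 5 usable bins, observed over expected contacts were 0.63 in control and 0.78 (0.73 to 0.84) after CTCF siRNA. The listed TAD thus held fewer contacts than expected for its distances in both maps. SOX10 was the gene with the higher value. Of the 22q11.2 genes between low copy repeats 1 of the 7 with a value, HIRA, was lower by at least 0.5 (-0.87 ± 0.08), while TBX1, a transcription factor of pharyngeal development, changed by 0.15 ± 0.10. TBX1 lay in a TAD of 360 kb in control and 400 kb after CTCF siRNA.

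Clusters of related genes lay in few TADs. The 6 apolipoprotein L genes, which encode lipid-binding proteins, all lay in shorter TADs, with insulation changes of 0.13 to 0.36. The 7 APOBEC3 genes all lay in a TAD of 440 kb in control and in the joined TAD of 840 kb after CTCF siRNA, with changes of 0.10 to 0.18. The 4 crystallin genes, which encode lens proteins, lay in longer TADs, and CRYBB2 (0.53) and CRYBB3 (0.67) were among the genes with higher values. In each cluster neighbouring genes shared bins and TADs, so they do not count as separate observations. SCO2, TYMP and the 4 terminal 22q13.3 genes, SHANK3 and ARSA among them, lay beyond the last TAD and had no value, and neither did LZTR1.

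With distance, contacts of chromosome 22 shifted from short to middle range after CTCF siRNA. Contacts within a bin made up 24.4% and 24.3% of cis contacts, and those at 40 to 120 kb 30.3% and 28.4%. The share at 0.44 to 1 Mb was 12.1% in control (95% Wilson interval 11.9 to 12.2) and 14.0% after CTCF siRNA (13.9 to 14.1), and at 1.04 to 2 Mb 4.45% (4.35 to 4.56) and 5.77% (5.72 to 5.82), a ratio of 1.30. Beyond 10 Mb it fell from 2.92% to 2.28%. The decay was therefore shallower up to 2 Mb, with a log-log slope of -1.62 ± 0.04 (SE of the fit) in control and -1.47 ± 0.04 after CTCF siRNA between 120 kb and 2 Mb. Their difference of 0.14 was the highest of the 23 chromosomes, whose median was 0.012. Between 400 kb and 10 Mb the difference was -0.21, so the direction depends on the distances. The share over 2 Mb was 8.62% and 7.82%, both the lowest of the 23 chromosomes, and the change of -0.81 percentage points was the smallest fall, against a median change of -3.72. On chromosomes 17, 19, 20 and 21 this share was 10.9%, 11.1%, 10.6% and 10.7% in control. After CTCF siRNA it was 9.20%, 9.08%, 9.11% and 8.19% on these.

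**Figure D4:**
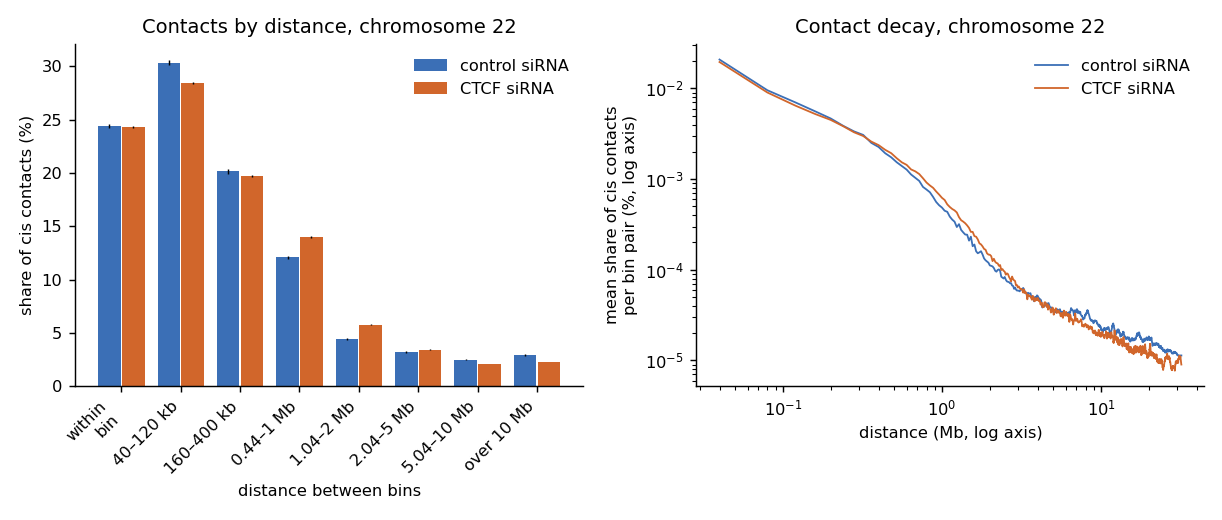
Share of chromosome 22 cis contacts (%) in bands of distance, with 95% Wilson intervals (left), and mean share per usable bin pair by distance in Mb on log axes (right), after control and CTCF siRNA. The CTCF siRNA curve lay above control at all 65 distances from 0.44 to 3 Mb, and at 1 of 549 from 10.04 Mb on. Where contacts were few, the curves average over neighbouring distances, so the values at long distances are not separate from each other.

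Across 5 Mb segments the contacts between 20 to 25 Mb and 25 to 30 Mb differed most. There were 1036 contacts in control, at an observed over expected of 0.57, and 10170 after CTCF siRNA, at 0.81, a ratio of 1.41 (1.33 to 1.51). The maintained boundary at GGT1 and SNRPD3 (24960001 to 25000000) lies where these segments meet, and its insulation value went from -1.17 to -0.65 (0.52 ± 0.13), a change of 0.09 with flanks of 200 kb and 0.14 with balanced counts. The lowest ratio of the 36 segment pairs, 0.84 (0.80 to 0.89), was between 25 to 30 Mb and 30 to 35 Mb.

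Chromosome 22 kept more of its contacts to itself than any other of the 23 chromosomes in either map, with a cis share of 39.4% in control and 60.2% after CTCF siRNA, and the rise of 20.8 percentage points was second to that of chromosome 19 (21.6). Contacts with other chromosomes numbered 231727 and 643281. Relative to the product of trans totals, its most frequent partners were chromosome 19 (1.505 in control and 1.89 after CTCF siRNA), chromosome 20 (1.41 and 1.80) and chromosome 17 (1.41 and 1.66). Chromosome 21, the other small acrocentric chromosome, stood at 1.12 and 1.27, and chromosome 4 was lowest at 0.88 and 0.78. The cis share rose together with depth and with the number of libraries pooled, whose part in it was not tested.

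**Figure D5:**
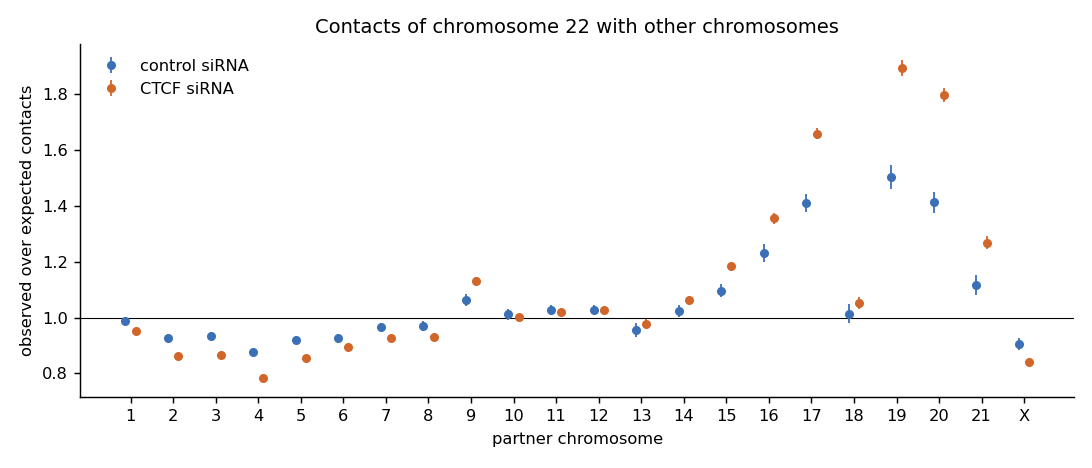
Observed over expected contacts between chromosome 22 and each other chromosome, in the control and CTCF siRNA maps, with 95% Poisson intervals that cover counting only. Chromosomes 19, 20 and 17 lay highest in both maps and rose further above 1 after CTCF siRNA.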

How the data were processed

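Hi-C libraries of LNCaP cells were mapped by the authors to hg19. Per the submitters' processing notes the tools included FastQC 0.11.2, Bowtie 1.1.0, SAMtools 1.2 and Picard 1.121, and the study's methods name HiCUP with BglII sites, pooling of the libraries of a condition, and the directionality index domain caller of Dixon and colleagues for TADs. The deposited contact values are read-pair counts per pair of 40 kb bins, multiplied by a factor for each bin at 9.4 to 48.12 Mb that all chromosomes share by position. These values were therefore not raw counts, as first assumed. Whole counts were recovered by dividing by these factors, and came out whole for 99.98% (control) and 99.995% (CTCF siRNA) of chromosome 22 values, within 0.010 plus 0.05% of the value. On chromosome 22, 745 usable bins had a factor and 77 had none. No values were given at 121 positions on any chromosome, 2 of them covering bins of chromosome 22. The deposited TAD lists give a start and an end without a score.

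From the recovered counts, observed over expected contacts, insulation, decay and contacts with other chromosomes were computed with Python 3.11.15, NumPy 2.4.6, pandas 2.3.3 and SciPy 1.17.1, and TADs were called anew with hmmlearn 0.3.3. An insulation value needed 50% usable bin pairs, and contacts within a bin were left out of it. Counting SDs were propagated from Poisson counts, and intervals are Wilson, exact Poisson or order-statistic intervals at 95%. With 1 map per condition no test was possible. The code was tested on simulated data. The members, gene lists and rules were chosen with earlier results of these data known. Named by rule were every gained boundary, the 3 lost and 3 maintained boundaries with the largest change in each direction and at least 50 control contacts expected across, the TADs holding most TADs of the other list, and the listed genes; other boundaries named were chosen after their values were seen. A few genes and boundaries under this rule are not reported here. Alternatives were other flanks, tolerances, distances, balanced or deposited values, thinning, and TADs called anew. The size and length of the TADs called anew and the balanced TTC28 ratio were added after seeing the data.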

Additional observations from a re-analysis of the deposited data

How the results depend on the processing

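No paired analysis was possible because the deposited maps pool the replicates, 1 map per condition, and for the same reason no library could be left out. The TAD difference of 3 became 1 when TADs were called anew at full depth and -2 after thinning the deeper map to the control's cis contacts. The median size difference of -240 kb became 60 and 220 kb, and that in length inside TADs, 1.36 Mb, became 2.40 and 0.52 Mb. The cause was not tested. The length difference became -2.28 Mb with TADs of at most 3 Mb only, which drops the 3640 kb TAD. The slope difference of 0.14 became -0.21 at 400 kb to 10 Mb, where other distances enter. The median change inside TADs, -0.08, was -0.022 with flanks of 200 kb. The change in contacts over 2 Mb, -0.81 percentage points, was -1.08 without contacts within a bin and -1.02 with values as deposited, and the difference in cis share, 20.8 points, was 20.4 and 22.7. Balancing moved the TTC28 ratio from 0.512 to 0.918. Of the 52 alternative values of results other than single boundaries, these included, 38 kept their direction and stayed within 1.5 times the count or within the interval of the value. The median change of gained boundaries was -0.42 with flanks of 200 kb and -0.13 with flanks of 800 kb or with the CTCF siRNA map thinned. That of lost boundaries was 0.38 with flanks of 800 kb, and that of maintained boundaries 0.20 with flanks of 200 kb. Over the sharing and joining distances tried, gained boundaries made up 36.4% to 56.8% and lost boundaries 38.5% to 58.7%. Where the change at a named boundary was at least 0.5 in size, 22 of 22 values with other flanks kept their sign, and 25 of 36 did so below 0.5, but 23 of these 58 values lay outside the counting interval of the reported change. Contacts of 41 across a bin limit the 2 boundaries at USP18 and AC008132.13.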
